A study of Mus musculus with 6 samples.

Results

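The BCL2 family of apoptosis regulators was followed in human neuroblastoma tumours grown in mice with and without an inhibitor of the chemokine receptor CXCR4. The family genes were taken by symbol: 10 were proposed, and 9 of them had a probe set with exactly 1 gene symbol, out of 18417 genes measured this way. They are the inhibitors of apoptosis BCL2, BCL2L1 and MCL1, the BH3-only promoters BCL2L11, PMAIP1, BBC3 and BID, and the effectors BAX and BAK1. The inhibitor gene BCL2L2 shares its probe set with the readthrough gene BCL2L2-PABPN1 and was not analysed here. Each of the 9 genes had a single probe set on the array.

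All 6 tumours arose from SK-N-BE(2), a long-established human neuroblastoma line known for MYCN amplification, placed in the adrenal gland of NSG mice, which lack T, B and natural killer cells. In the treated group, 3 mice received 400 µg of BL-8040 under the skin on 14 consecutive days, starting 7 days after the cells were injected. The other 3 mice were controls by their titles. Their records carry the same BL-8040 treatment text as those of the treated mice, so what the controls were given is not known here, and the groups rest on the titles. One tumour per mouse was read on 1 array of human probe sets, so the results describe 1 cell line in a host without lymphocytes. The labels give no age for the mice. In bulk tumour RNA, fewer cells of a type and less RNA per cell cannot be told apart.

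The BCL2 family decides whether the outer membrane of the mitochondrion stays closed. BAX and BAK, once active, form pores in it, cytochrome c leaves, and caspases are switched on. BCL2, BCL-XL (encoded by BCL2L1) and MCL1 hold BAX, BAK and the BH3-only proteins in check, and the BH3-only proteins BIM (BCL2L11), NOXA (PMAIP1), PUMA (BBC3) and BID carry stress signals to them. Neuroblastoma cells are known to lean on BCL2 or MCL1 for survival. Much of the control over these proteins is exerted after transcription, by phosphorylation, cleavage, binding and breakdown, which an RNA array does not read.

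Values are log2 signals, in which a difference of 1 is a doubling. The medians of the 6 arrays ran from 5.35 to 5.42. Across genes, BL-8040 replicate 3 correlated less with its fellow arrays (median r 0.9936) than the rest did (0.9956 to 0.9961). Of the 9 genes, 5 had their lowest value in this array (55.6%), as did 30.5% of all genes. Precision is limited by the number of arrays. Around a difference the 95% interval extended either way by 0.197 log2 units in the median gene and 0.17 to 0.31 in the 9 family genes. The noradrenergic markers of neuroblastoma cells were present: 8 of the 10 fixed marker genes were measured, with mean signals between percentile 49.2 and 98.0 of all genes.

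None of the 9 genes passed the test. In limma, 0 of them had a Benjamini-Hochberg adjusted p under 0.05 over all genes, as did 0 of 18417 genes (0.0%), and their adjusted p lay between 0.644 and 0.999. At an unadjusted p under 0.05 stood 1 of the 9 (11.1%), MCL1, against 7.72% of all genes in either direction and 2.64% in the higher direction. The BL-8040 and control values overlapped in 8 genes. The exception was again MCL1 (11.1% of the 9), where 14.0% of all genes had non-overlapping groups and 4.93% had the treated group on top. These shares are near the background of the array.

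**Figure D1:**
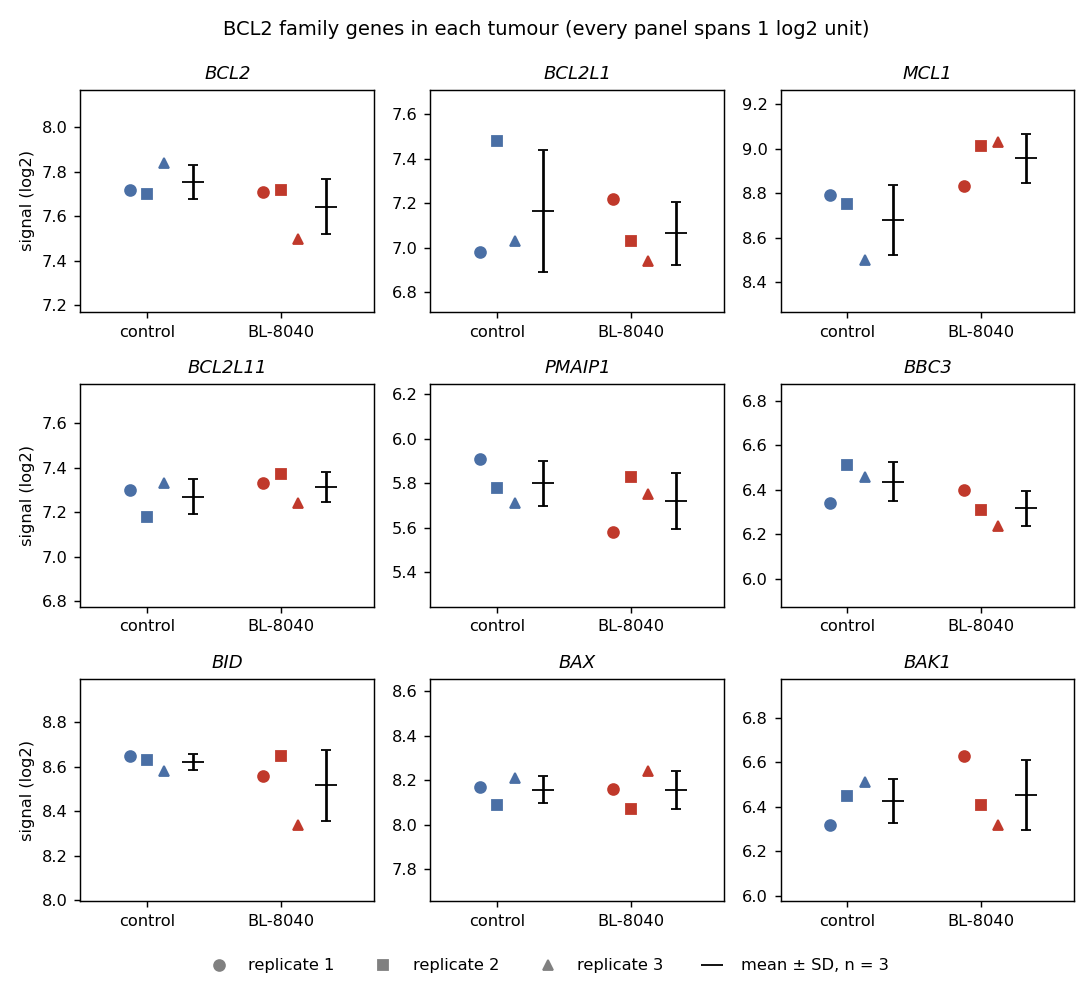
Signal (log2) of the 9 BCL2 family genes in each tumour, with controls in blue, BL-8040 tumours in red, the symbol giving the replicate and the bar the group mean ± SD (n = 3). MCL1 is the only gene of the 9 whose treated values (8.83 to 9.03) all lie above the controls (8.50 to 8.79), and in BCL2L1 control replicate 2 stands at 7.48, above all other arrays.

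MCL1 encodes a short-lived inhibitor that binds BAK, BIM and NOXA. Its signal was 8.83, 9.01 and 9.03 in the treated tumours (replicates 1, 2 and 3, the order used throughout) and 8.79, 8.75 and 8.50 in the controls. The groups did not overlap, but the lowest treated value lay 0.04 log2 units above the highest control, and control replicate 3 stood below the other 2 controls. The means were 8.96 ± 0.111 and 8.68 ± 0.158 (SD, n = 3 each), or 1.21-fold (95% interval 1.04 to 1.42). The log2 difference of 0.28 ± 0.10 (SE) had an unadjusted limma p of 0.0205, rank 551 among all genes, and an adjusted p of 0.644. The exact permutation p was 0.1, as low as a comparison of 3 with 3 arrays can go.

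The size of the MCL1 difference depended on single arrays. It was 0.19 without control replicate 3, 0.25 without BL-8040 replicate 2 and 0.24 without the third treated array, and in these 3 cases the 95% interval held 0 and the unadjusted limma p was 0.0745, 0.0589 and 0.0618. Without BL-8040 replicate 1 it was 0.34. Over 14 other settings the difference stayed positive, 11 of the intervals lay above 0, and the limma adjusted p ran from 0.475 to 0.896. The filters on dim genes, the mean of probe sets, the variance trend and the replicate block could not move the difference of 0.28, only its interval. Their agreement in sign therefore adds nothing.

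**Figure D2:**
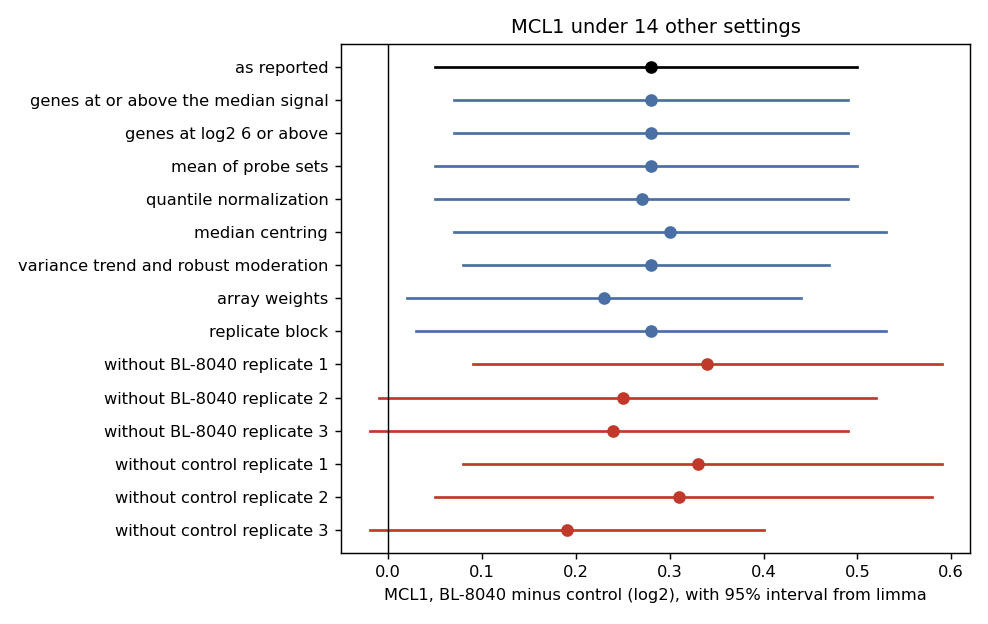
MCL1 difference, BL-8040 minus control (log2), as points with the 95% interval from limma, as reported (black), under 8 other ways of processing (blue) and with each array left out (red). All 15 points lie right of 0, between 0.19 and 0.34, and 3 of the 6 intervals with an array left out hold 0. The filters, the mean of probe sets, the variance trend and the replicate block could not move the point.

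BCL2, the founding member of the family, was measured at 7.71, 7.72 and 7.50 after BL-8040 and at 7.72, 7.70 and 7.84 in controls. BL-8040 replicate 3 was low and control replicate 3 high, while the other 4 arrays lay within 7.70 to 7.72. The difference was -0.11 ± 0.09 (SE; 95% interval -0.30 to 0.09; limma adjusted p 0.742). It shrank to -0.04 once BL-8040 replicate 3 was set aside, the most that any single array moved it.

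BCL2L1 is spliced into the inhibitor BCL-XL and a shorter form that promotes death, which a single value per gene does not separate. Its signal was 7.22, 7.03 and 6.94 in treated tumours and 6.98, 7.48 and 7.03 in controls. Control replicate 2 stood at least 0.26 log2 units above every other array, and the remaining 5 values overlapped. The difference was -0.10 ± 0.14 (SE; limma adjusted p 0.854), and its 95% interval, -0.41 to 0.21, was the widest of the 9 genes. Without control replicate 2 the sign turned, to 0.06.

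Of the 4 BH3-only genes among the 9, BBC3, which encodes PUMA, had the largest difference. Treated values were 6.40, 6.31 and 6.24 and control values 6.34, 6.51 and 6.46, so the groups overlapped through BL-8040 replicate 1 and control replicate 1. The difference was -0.12 ± 0.08 (SE), a 0.921-fold level (interval 0.812 to 1.04; limma adjusted p 0.707). The exact permutation p was 0.2. With 1 array left out the BBC3 difference lay between -0.17 and -0.08, without control replicate 1 and without control replicate 2.

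BID, which is cut by caspases to link death receptors with mitochondria, was 8.56, 8.65 and 8.34 after BL-8040 and 8.65, 8.63 and 8.58 in controls. The low treated mean came with 1 array: without BL-8040 replicate 3 the difference was -0.01, against -0.10 ± 0.09 (SE; interval -0.31 to 0.11, limma adjusted p 0.768) with all 6. PMAIP1, which encodes NOXA, the partner that marks MCL1 for breakdown, was 5.58, 5.83 and 5.75 in treated tumours and 5.91, 5.78 and 5.71 in controls. BL-8040 replicate 1 was the lowest, and without it the PMAIP1 difference went from -0.08 to -0.01 (95% interval with all arrays -0.28 to 0.13, adjusted p 0.831).

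BCL2L11 encodes BIM, which binds every inhibitor of the family. It was among the steadiest of the 9 genes: 7.33, 7.37 and 7.24 after BL-8040 and 7.30, 7.18 and 7.33 in controls. Its difference was 0.04 ± 0.08 (SE; interval -0.13 to 0.21; limma adjusted p 0.886). Without control replicate 2 the BCL2L11 difference was -0.001.

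Of the 9 genes, the effectors BAX and BAK1 differed least. BAX was 8.16, 8.07 and 8.24 in treated tumours and 8.17, 8.09 and 8.21 in controls, with group means of 8.16 each. The BAX difference was -0.001, with an interval from -0.17 to 0.17, which leaves room for changes up to 1.13-fold. Its sign had no stable direction, as it turned when arrays were centred on their median (0.021). BAK1 was 6.63, 6.41 and 6.32 after BL-8040 and 6.32, 6.45 and 6.51 in controls. BL-8040 replicate 1 had the highest BAK1 value, and without that array the difference went from 0.03 (interval -0.19 to 0.24) to -0.06.

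**Figure D3:**
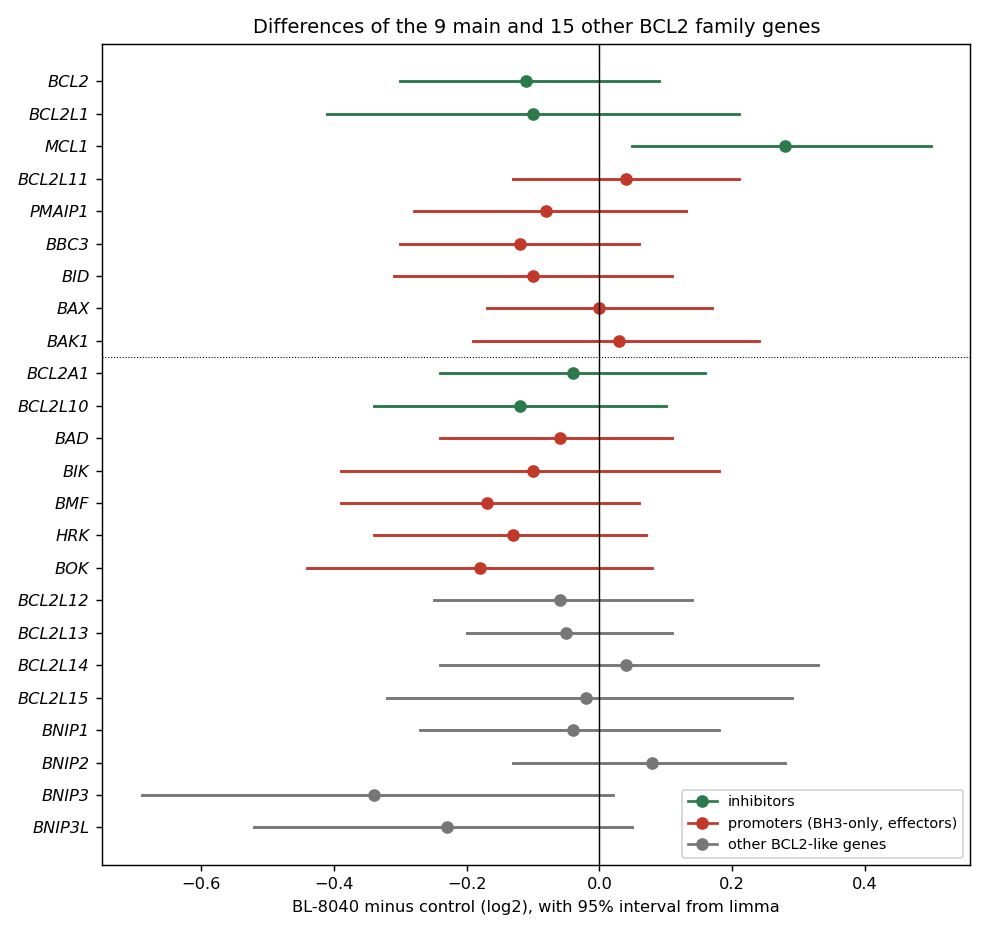
Differences of the 9 family genes (above the dotted line) and of 15 further family and BCL2-like genes (below it). Points give BL-8040 minus control in log2 units, with the 95% interval from limma. Inhibitors are green, promoters red and other BCL2-like genes grey. The interval of MCL1 (0.05 to 0.50) is the only one of the 24 that does not hold 0.

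The 9 genes differed in how much they varied between tumours. The steadiest were BAX and BCL2L11, whose SD over the 6 arrays was 0.067 log2 units each, at percentiles 15.1 and 15.5 of all genes, with ranges of 0.17 and 0.18. BBC3, BCL2, PMAIP1, BAK1 and BID lay near the middle of the array, with an SD of 0.101 to 0.118, where the median gene had 0.112. The most variable were MCL1 (SD 0.195, percentile 88.1) and BCL2L1 (0.205, percentile 90.0), each with a range of 0.54. In MCL1 the 3 highest arrays were the treated ones, whereas in BCL2L1 the highest was control replicate 2.

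The balance of inhibitors and promoters was taken per tumour. Since probe sets of different genes cannot be compared in level, each gene was first centred on its mean over the 6 arrays, and the mean of the 6 promoters was subtracted from that of the 3 inhibitors. The balance was 0.03, 0.03 and 0.02 in the treated tumours and -0.07, 0.09 and -0.12 in the controls. All 3 treated values fell inside the range of the controls. The group means were 0.031 ± 0.005 and -0.031 ± 0.11 (SD, n = 3 each), a difference of 0.062 log2 units. As a score over chosen genes it was given no test.

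The near-equal balance of the treated tumours was made of unlike parts. The inhibitor mean was 0.05, 0.04 and -0.05 and the promoter mean 0.01, 0.01 and -0.08 in the treated tumours, so that BL-8040 replicate 3 was low on both sides. In control replicate 2 the inhibitor mean of 0.10 went with the high BCL2L1 value, and in control replicate 3 the inhibitor mean of -0.09 went with the low MCL1 value. Among the promoters, the BH3-only mean was -0.03, 0.04 and -0.11 in treated tumours and 0.05, 0.03 and 0.02 in controls. The effector mean was 0.09, -0.06 and -0.02 against -0.05, -0.03 and 0.06.

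The sign of the balance difference hung on MCL1. Without this gene the balance difference was -0.066, with treated values of 0.05, -0.04 and -0.11 and control values of -0.08, 0.18 and near 0. Without BCL2 it was 0.128, with overlapping groups. Without BCL2L1 it was 0.123 and the groups parted, the treated tumours at 0.00, 0.10 and 0.09 and the controls at -0.02, -0.04 and -0.12. Set against the 2 effectors alone the balance difference was 0.011, against the 4 BH3-only genes alone 0.087, and with medians in place of means 0.03. MCL1 alone against the 6 promoters was near 0, 0.18 and 0.29 after BL-8040 and -0.05, -0.07 and -0.35 in the controls, without overlap; against single genes MCL1 parted the groups this way in 49.3% of cases, and no such share was computed for the balance. The same contrast of BCL2 with the promoters was -0.07 and that of BCL2L1 -0.061, both with overlapping groups.

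**Figure D4:**
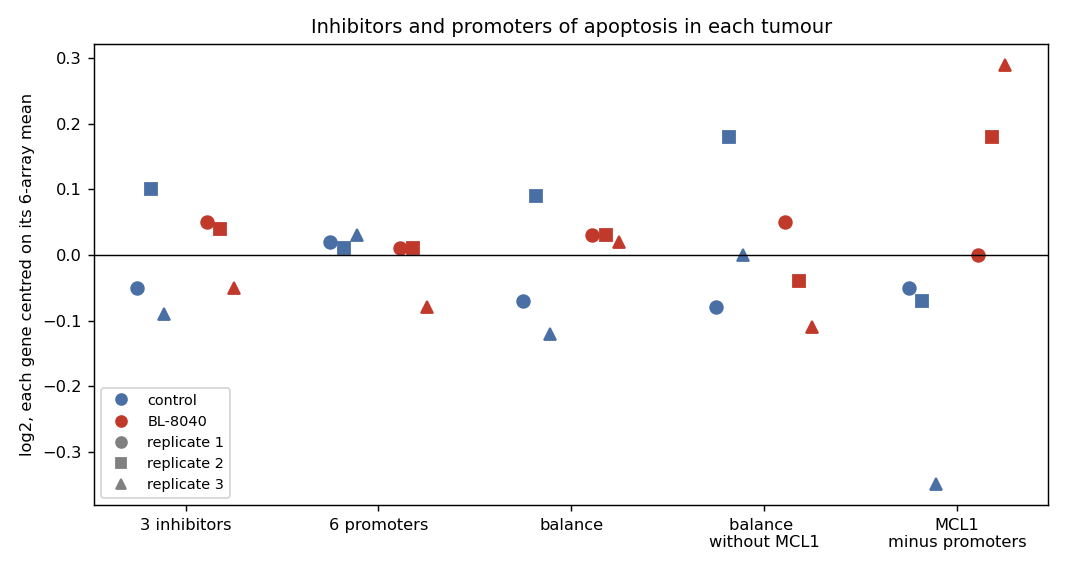
Mean of the 3 inhibitors, mean of the 6 promoters and their difference (the balance) in each tumour, then the balance without MCL1 and MCL1 alone against the promoters, in log2 units after each gene was centred on its 6-array mean; controls are blue, BL-8040 tumours red, and symbols give the replicate. The treated balance values (0.02 to 0.03) lie within those of the controls (-0.12 to 0.09), and of the quantities drawn the groups part only in MCL1 against the promoters.

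Pairing each inhibitor with each promoter gave 18 centred differences, 9 of them higher and 9 lower in the treated tumours. All 6 pairs with MCL1 were higher, and in 3 of them the treated tumours lay above all controls: with PMAIP1, BID and BAX. This share matches the array at large, since MCL1 set against each of 18416 other genes parted the groups in the same way in 49.3% of cases. For MCL1 against PMAIP1, its selective antagonist, the treated tumours were at 0.19, 0.11 and 0.23 and the controls at -0.18, -0.08 and -0.27, a difference of 0.354 log2 units. Of the 6 pairs with BCL2, 5 were lower. In the pair with BCL2L11 the treated tumours (-0.03, -0.05 and -0.15) lay below all controls (0.01, 0.11 and 0.11), as was the case for BCL2 against 11.0% of all genes. The groups overlapped in all 6 pairs with BCL2L1, of which 4 were lower. These pairs were formed after the single genes had been seen, and they share their members.

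A further list of family genes and BCL2-like genes, the latter 8 in number, was measured in 15 of 15 genes, and none passed the test. Of these, 13 stood lower (86.7%, against 58.5% of all genes and 66.7% of the 9) and 2 higher. The median difference was -0.06 against -0.02 over all genes. In limma 0 of the 15 had an adjusted p under 0.05 and 0 an unadjusted p under 0.05, and all 15 had overlapping groups. Leaving out BL-8040 replicate 3 again gave 13 of 15 lower, though BNIP1 turned to 0.062 and BCL2L14 to -0.007. For the 9 genes it gave 6 of 9 lower, and with array weights 10 of the 15 were lower. The share of all genes that were lower under these settings is not given here. The inhibitors BCL2A1 and BCL2L10 differed by -0.04 and -0.12, at mean signals near the dim end of the array (percentiles 12.1 and 17.3), and BCL2L10 went to -0.06 without BL-8040 replicate 1 and to -0.21 when the second treated array was left out. Among BH3-only genes, BMF differed by -0.17, HRK, known from neuronal death, by -0.13, BIK by -0.10 (a dim gene at percentile 16.1) and BAD, which survival kinases silence, by -0.06. Single arrays moved these values: BMF went to -0.10 without control replicate 3, HRK to -0.08 without BL-8040 replicate 1, BAD to -0.01 without control replicate 2 and BIK to 0.03 without control replicate 3.

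BOK, an effector that acts apart from BCL2, was 6.67, 6.70 and 6.69 in treated tumours and 6.58, 6.97 and 7.04 in controls. The treated values lay close together between a low and 2 high controls, and the difference of -0.18 (interval -0.44 to 0.08) went to -0.32 without control replicate 1 and to -0.09 without control replicate 3. BCL2L12, BCL2L13, BCL2L15 and BNIP1 differed by -0.06, -0.05, -0.02 and -0.04, and BCL2L14 and BNIP2 by 0.04 and 0.08, the BNIP2 value being 0.02 without control replicate 3.

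BNIP3 and BNIP3L, mitochondrial proteins that serve mitophagy and are induced by low oxygen, had the largest differences of the 15. BNIP3 was 9.86, 10.13 and 9.50 after BL-8040 and 10.04, 10.37 and 10.10 in controls, a difference of -0.34 ± 0.15 (SE; interval -0.69 to 0.02; limma adjusted p 0.646). BNIP3L was 10.07, 10.22 and 9.75 against 10.14, 10.40 and 10.20, a difference of -0.23 (interval -0.52 to 0.05, adjusted p 0.661). In both genes BL-8040 replicate 3 was lowest and control replicate 2 highest, and BL-8040 replicate 2 lay above 2 controls. Leaving out BL-8040 replicate 3 brought BNIP3 to -0.17 and BNIP3L to -0.10.

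The same arrays stood at the ends of a hypoxia list, of which 7 of 8 genes were measured. Its median centred value was -0.18, 0.20 and -0.78 after BL-8040 against 0.01, 0.58 and 0.19 without it. All 7 were lower, against 58.5% of all genes, with a median difference of -0.52, or -0.26 without BL-8040 replicate 3. NDRG1, SLC2A1 and ANKRD37 had an unadjusted p under 0.05 (limma; adjusted p 0.644 each), against 5.08% of all genes in that direction. The part of hypoxia in the BNIP3 and BNIP3L values was not tested.

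**Figure D5:**
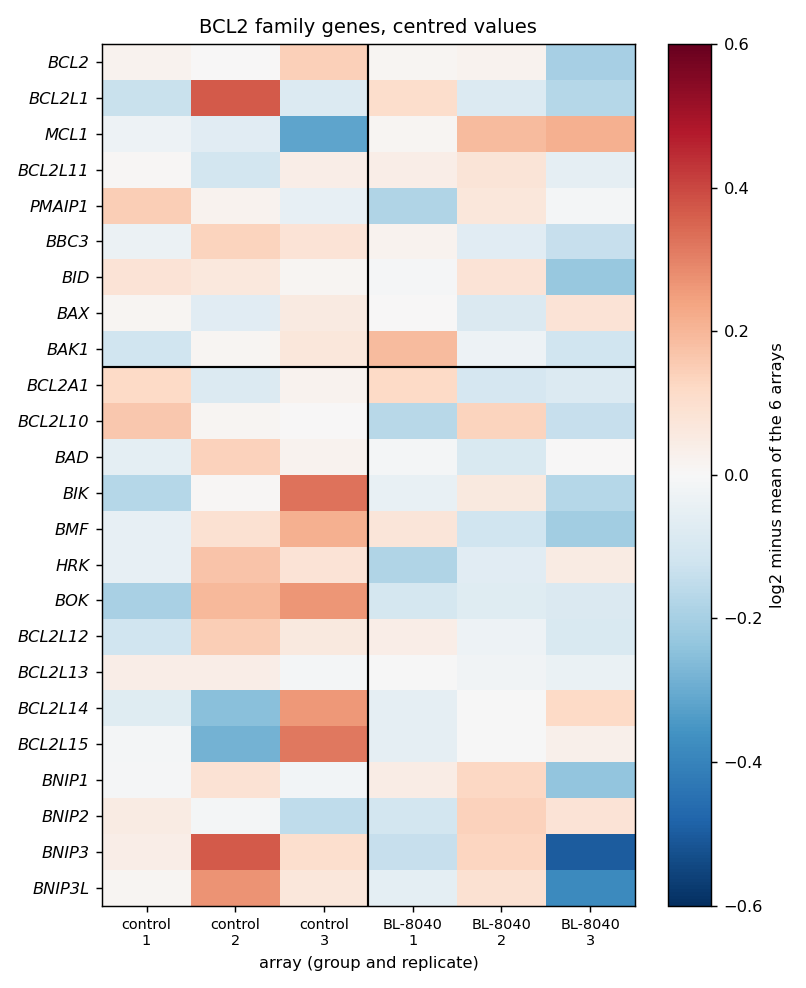
Centred values (log2 minus the mean of the 6 arrays) of the 9 family genes, above the line, and of 15 further family and BCL2-like genes. The 3 control arrays are on the left and the 3 BL-8040 arrays on the right, and red is above and blue below the gene's mean. BNIP3 and BNIP3L are deepest blue in BL-8040 replicate 3, BCL2L1 is reddest in control replicate 2 (0.37) and paler red in BL-8040 replicate 1 (0.11), and MCL1 is blue in control replicate 3 and red in BL-8040 replicates 2 and 3.

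Genes that act after the mitochondrial step showed small differences. Of the 8 measured genes of the release and caspase step, 6 were higher and 2 lower, with a median of 0.04. CYCS, the gene of cytochrome c, differed by 0.14 and the flavoprotein gene AIFM1 by 0.13, and in AIFM1 the lowest treated value (7.83) lay above the highest control (7.79). Without BL-8040 replicate 3 the AIFM1 difference was 0.08. All 4 measured caspase inhibitor genes were higher, with a median of 0.04. Among them BIRC6, a very large ubiquitin ligase, was 9.07, 9.05 and 9.08 against 8.95, 8.82 and 8.99. The 4 mitochondrial partners of BAX and BAK were higher as well (median 0.03), led by the channel gene VDAC1 at 8.04, 8.04 and 8.03 against 7.90, 7.85 and 7.97. No gene of these lists had an unadjusted limma p under 0.05, and the adjusted p of BIRC6 and VDAC1 was 0.652 and 0.661. In AIFM1, BIRC6 and VDAC1, 1 gene of each list, all treated values lay above all controls, as in 4.93% of all genes. AIFM1, BIRC6, VDAC1 and CYCS were picked once their values had been seen.

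Upstream of the family, the 12 measured transcription factors were split into 6 higher and 6 lower (median -0.02, or 0.03 without BL-8040 replicate 3). TP73, a transcription factor that can switch on BBC3 and PMAIP1, was 7.34, 7.09 and 7.28 after BL-8040 and 7.44, 7.61 and 7.47 in controls. Its groups did not overlap, with the treated tumours below, as in 9.05% of all genes. The difference of -0.27 ± 0.09 (SE) had an unadjusted limma p of 0.0146 and an adjusted p of 0.644. It lay between -0.32 and -0.20 with 1 array left out, the latter without BL-8040 replicate 2. FOXO3, which can induce BCL2L11, differed by -0.18 (interval -0.40 to 0.04), or -0.11 without control replicate 1 and -0.28 without control replicate 2, and was named after its value was seen.

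MYCN was 12.26, 12.34 and 12.10 in treated tumours and 12.22, 12.17 and 12.22 in controls, and CXCR4, the target of the drug, was 3.88, 4.32 and 3.79 against 4.35, 4.23 and 3.92. Of the 8 genes for turnover of the MCL1 protein, 7 were higher and 1 lower, with a median of 0.07 and no unadjusted limma p under 0.05. They include HUWE1, a ubiquitin ligase of MCL1 (0.05, or 0.022 with quantile normalization and 0.026 without BL-8040 replicate 3), and USP9X, which removes ubiquitin from it (0.08). In 1 of the 8, USP9X, the treated values (8.31, 8.27 and 8.27) lay above all controls (8.21, 8.21 and 8.18), as in 4.93% of all genes. USP9X and HUWE1 were named after their values were seen.

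Markers of tumour and host cells moved as follows beside these results. All 8 noradrenergic genes were lower, against 58.5% of all genes, with a median of -0.23 (-0.16 without BL-8040 replicate 3). HAND2 reached an unadjusted p of 0.0290 (limma, adjusted 0.644), and 0 of the 8 had an adjusted p under 0.05. The host is a mouse and the probe sets are human, so whether the host lists read mouse or human RNA cannot be told here. Of the host lists, 4 of 6 endothelial genes, 2 of 6 fibroblast genes, 2 of 6 myeloid genes and 1 of 5 adrenal cortex genes were lower, with medians of -0.05, 0.06, 0.06 and 0.04, and 3 of 4 lymphocyte genes (median -0.02). Without BL-8040 replicate 3 these medians were -0.05, -0.01, -0.01, 0.02 and -0.05. In 3 of the 6 endothelial genes, PECAM1, CDH5 and VWF, all treated values lay below all controls, as in 9.05% of all genes. The same held for 2 of the 8 noradrenergic genes. In 1 of the 6 myeloid genes all treated values lay above all controls, as in 4.93% of all genes. The mean difference was -0.11 in CDH5 and -0.08 in VWF, both dim genes named after their values were seen. The mean signal of a host list overlapped between the groups in each list, for instance 4.96 to 5.21 in treated and 4.97 to 5.06 in control tumours for the myeloid genes. PECAM1 differed by -0.21 and LYZ by 0.32, both dim genes with adjusted p of 0.644 in limma. PECAM1 has 2 probe sets, and with their mean its difference was -0.082 (limma adjusted p 0.773). Endothelial, adrenal cortex and lymphocyte genes lay at or below percentile 44.0 of all genes, whereas fibroblast genes, which the tumour cells can also express, lay between 69.2 and 98.8. Myeloid genes ranged from percentile 7.79 to 83.3. The part of host cells and of the lower noradrenergic signals in the family values was not tested.

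The genes most like a family gene over the 6 arrays were found by the root mean square difference between centred profiles. For MCL1 these were NLK (0.031 log2 units), RAB1C (0.037) and C1GALT1 (0.039). NLK, a kinase gene, was 6.44, 6.63 and 6.61 after BL-8040 and 6.38, 6.43 and 6.12 in controls, and 254 genes came within 0.1 of MCL1. The nearest of the other 8 family genes was PMAIP1, at 0.188 and rank 5875, farther than a flat profile would be (0.178). For BCL2 the nearest genes were ABHD14A (0.010), DCAF10 (0.018) and PDK3 (0.020), and 4410 genes came within 0.1. BID, at 0.070 and rank 1253, was the family gene nearest to BCL2. BCL2L1, the most variable of the 9, was nearest to HOMER2 (0.055), PMM1 (0.060) and ACACB (0.061), with BBC3 at 0.127 and rank 665 as the nearest family gene.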

How the data were processed

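The authors deposited 1 table of log2 signals for 33297 probe sets on 6 arrays of the Human Gene 1.0 ST type. The log2 scale was read from the values, whose quartiles are nearly equal in all arrays. Partek 6.6 is listed in the submitters' processing notes; the labels and notes do not state the background correction, normalization or summarization, and no detection calls were used. Names came from the platform annotation: 19460 probe sets had 1 symbol, 1754 several and 12083 none. The brightest probe set by 6-array mean was kept for each of 18417 genes. No 2 arrays held identical values. Titles gave the groups and replicate numbers.

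BL-8040 and control (3 arrays each, 1 mouse each per the series' design text) were compared with lmFit and eBayes of limma 3.58.1 (R 4.3.3), two-sided and without a replicate block, with Benjamini-Hochberg adjustment over all genes; calls needed an adjusted p under 0.05. The method was tested on simulated data with 50 changed genes of each size. It recovered 12% of changes of 0.3 log2 units, 96% of 0.58 and 100% of 1, with 9 false calls. These shares hold for that mix of sizes and for simulated noise that was independent between genes and equal in spread over the arrays. The real arrays differed in spread, with a limma array weight of 0.473 for BL-8040 replicate 3 and 0.804 to 1.809 for the rest. The simulation therefore does not show what share of real changes of these sizes would be found. Permutation tests were exact and two-sided, and cannot go below 0.1. The 9 family genes and all lists were chosen with earlier results of these data known. Beyond the 9, the text names the other family and BCL2-like genes and the list genes at an unadjusted limma p under 0.05 (up to 3 a list). It also names the 3 profiles nearest to MCL1, BCL2 and the most variable family gene, CXCR4, MYCN, and those marked as chosen after their values were seen. Alternatives were filters on dim genes, the mean of probe sets, other normalizations, other variance models, array weights, a replicate block, another threshold, other definitions of the balance and leaving out each array.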

Additional observations from a re-analysis of the deposited data

How the results depend on the processing

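No gene and none of the 9 family genes passed under any of 15 alternatives for the whole array (limma; smallest adjusted p 0.224 for any gene and 0.475 for a family gene). A p that misses the threshold does not show that these genes were unchanged. BAX turned from -0.001 to 0.021 with median centring and lay between -0.044 and 0.044 with 1 array left out. With array weights BCL2A1 turned to 0.006, BCL2L15 to 0.015 and BNIP1 to 0.004, and with median centring BCL2L15 to 0.005. Leaving out 1 array in turn gave ranges that cross 0 for BCL2L1, BCL2L11, BAK1 and other near-zero genes: BCL2L1 from -0.192 to 0.06, BCL2L11 from -0.001 to 0.078, BAK1 from -0.06 to 0.093, BCL2A1 from -0.111 to 0.009, BIK from -0.22 to 0.032, BCL2L12 from -0.131 to 0.002, BCL2L14 from -0.073 to 0.183, BCL2L15 from -0.161 to 0.138, BNIP1 from -0.117 to 0.062, MYCN from -0.024 to 0.099 and ACACB from -0.115 to 0.074. The balance difference of 0.062 turned to -0.066 without MCL1 and lay between 0.018 and 0.123 with 1 array left out; with effectors alone as promoters it was 0.011, with the median over genes 0.03, and with genes scaled to their SD it was 0.30 SD units. Deviations of same-numbered arrays had correlations of -0.037 to 0.077, and those of other pairs -0.086 to 0.072. With 3 arrays a group this gave no sign that the numbers pair the tumours, but it cannot exclude it. With the replicate block no gene passed (0 calls), MCL1 differed by 0.28 (unadjusted p 0.0339) and the balance by 0.062. Without detection calls, values of dim genes such as BCL2A1, BCL2L10, BIK, BCL2L15 and CXCR4 cannot be told from background.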
